A study of Mus musculus with 16 samples.

Results

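Cytokine receptors of blood cell progenitors signal through JAK kinases and STAT transcription factors, and the genes that STATs switch on include inhibitors of that same pathway. The 10 mouse genes described here were grouped as STAT feedback genes, though not all of them are such inhibitors. They are the SOCS family members Socs1, Socs2, Socs3, Socs4, Socs5, Socs6 and Cish, and the kinases Pim1, Pim2 and Pim3. They were chosen by name, as every non-control probe whose gene name in the array files equals a member, which gave 14 probes for 10 genes among 39429 probes and 28631 gene names.

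SOCS proteins bind phosphorylated receptors or JAKs through an SH2 domain, and their SOCS box recruits a ubiquitin ligase, so that receptor signaling is dampened after it starts. Socs3 is induced by STAT3 and acts on receptors such as those for G-CSF and IL-6, Cish and Socs2 are known targets of STAT5, and Socs1 is induced by interferon. PIM proteins are serine/threonine kinases controlled mainly by how much of them is made, and they promote survival and growth of hematopoietic cells.

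RNA of sorted bone marrow (BM) progenitors was hybridized to 16 one-color Agilent arrays, 4 per group. Macrophage-dendritic cell progenitors (MDPs) give rise to common dendritic cell progenitors (CDPs), and both were taken from female C57/Bl6 (C57BL/6) mice that carried end-stage orthotopic PyMT-B6 mammary tumors of 1.5 cm, or from tumor-free mice (labelled Normal). PyMT-B6 is a cell line from the MMTV-PyMT mammary tumor model on the same background, so tumor cells were implanted and the progenitors themselves carry no transgene. Each sample pooled 2 mice per the study's methods, and the labels number the samples of a group 2 to 5 and describe 4 independent experiments. Unless stated otherwise, the study's mice received tumor cells when 7 to 8 weeks old and were examined when 9 to 12 weeks old.

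The 4 slides each carried 4 arrays. Each tumor-free group had 1 array on every slide, whereas slide 1 held 2 MDP and 0 CDP samples from PyMT-B6 mice and slide 4 held 2 CDP and 0 MDP samples from PyMT-B6 mice. Between 58.8% and 71.5% of probes were well above background on an array, 0 were saturated, and the number of arrays limits the precision. Of 7 genes listed to check the identity of MDPs and CDPs, 6 (Flt3, Csf1r, Kit, Cx3cr1, Irf8 and Csf2ra) were well above background on all 16 arrays. The other, Il7r, was well above background on no MDP array and on some but not all CDP arrays. Kit, the stem cell factor receptor, was lower in CDPs than in MDPs of tumor-free mice by a log2 difference of -2.59 (adjusted p = 3.59e-06 in limma).

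Signals are log2 values of the processed spot intensity minus the 75th percentile of the array, so that 0 marks a signal equal to that percentile. They were compared for 1 probe between groups and never between probes. Of the 14 probes, 11 passed the filter on dim probes, which asked for 3 or more arrays of some group with a signal well above background, and covered all 10 genes, so a gene is given by its tested probe with the highest mean. A gene was called if limma gave a Benjamini-Hochberg adjusted p under 0.05 over all 27433 tested probes and a fold change above 1.5. The smallest p that an exact permutation test of 4 against 4 arrays can give is 0.0286.

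STATs bind DNA at the palindrome TTCNNNGAA, and a form with 1 more N in the middle is also bound by some STATs. The RefSeq promoter table (GRCm38.p6) has a window from 250 bases before to 50 bases after the start for 7 of the 10 genes, with 8 windows in all because Pim1 has 2, and none for Socs2, Socs5 or Socs6. Read on both strands, which the palindrome makes the same, TTCNNNGAA occurred in the windows of Socs3 and Cish, that is in 2 of 7 genes, against 9.55% of all 27025 genes and 8.3% of all 32851 windows. The longer form occurred in 0 of the 7, against 8.01% of all genes. Such a match is a description of letters and not a bound site. The Socs3 stretch is shown because Socs3 had the largest tumor difference of the members, and the Cish stretch because it holds a pair of matches. The first runs from 250 bases before the start to the start (chr11:117969367-117969616, minus strand), with its match in capitals beginning at position -154. The second spans 30 bases around the start of Cish (chr9:107296654-107296683, plus strand), with matches in capitals beginning at positions 1 and 12 of the transcript.

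Socs3: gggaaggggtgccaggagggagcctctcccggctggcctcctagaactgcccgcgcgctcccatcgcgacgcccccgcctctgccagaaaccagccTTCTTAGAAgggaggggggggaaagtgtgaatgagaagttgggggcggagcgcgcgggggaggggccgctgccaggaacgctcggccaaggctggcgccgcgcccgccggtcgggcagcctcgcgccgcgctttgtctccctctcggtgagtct

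Cish: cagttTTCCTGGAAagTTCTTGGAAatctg

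The main tumor result among the members was a higher Socs3 signal in CDPs. Pim1 was higher in PyMT-B6 samples than in any tumor-free sample in both CDPs and MDPs without passing the adjusted test, and Socs5 was lower in both, passing it in CDPs. The other 7 members were not called in either progenitor. In CDPs 2 of 10 members were called, 1 higher and 1 lower, where 1.82% of all 20246 genes tested were called (0.864% higher and 0.958% lower). The members were chosen with earlier results of these data known, so such shares are no test of the set. In MDPs 0 of 10 were called, where 0.079% of genes were, although 2 members had an unadjusted p under 0.05, and 10.5% of all genes did. The methods' t-test called 1 member there before adjustment (Pim1) and 0 after it.

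**Figure D1:**
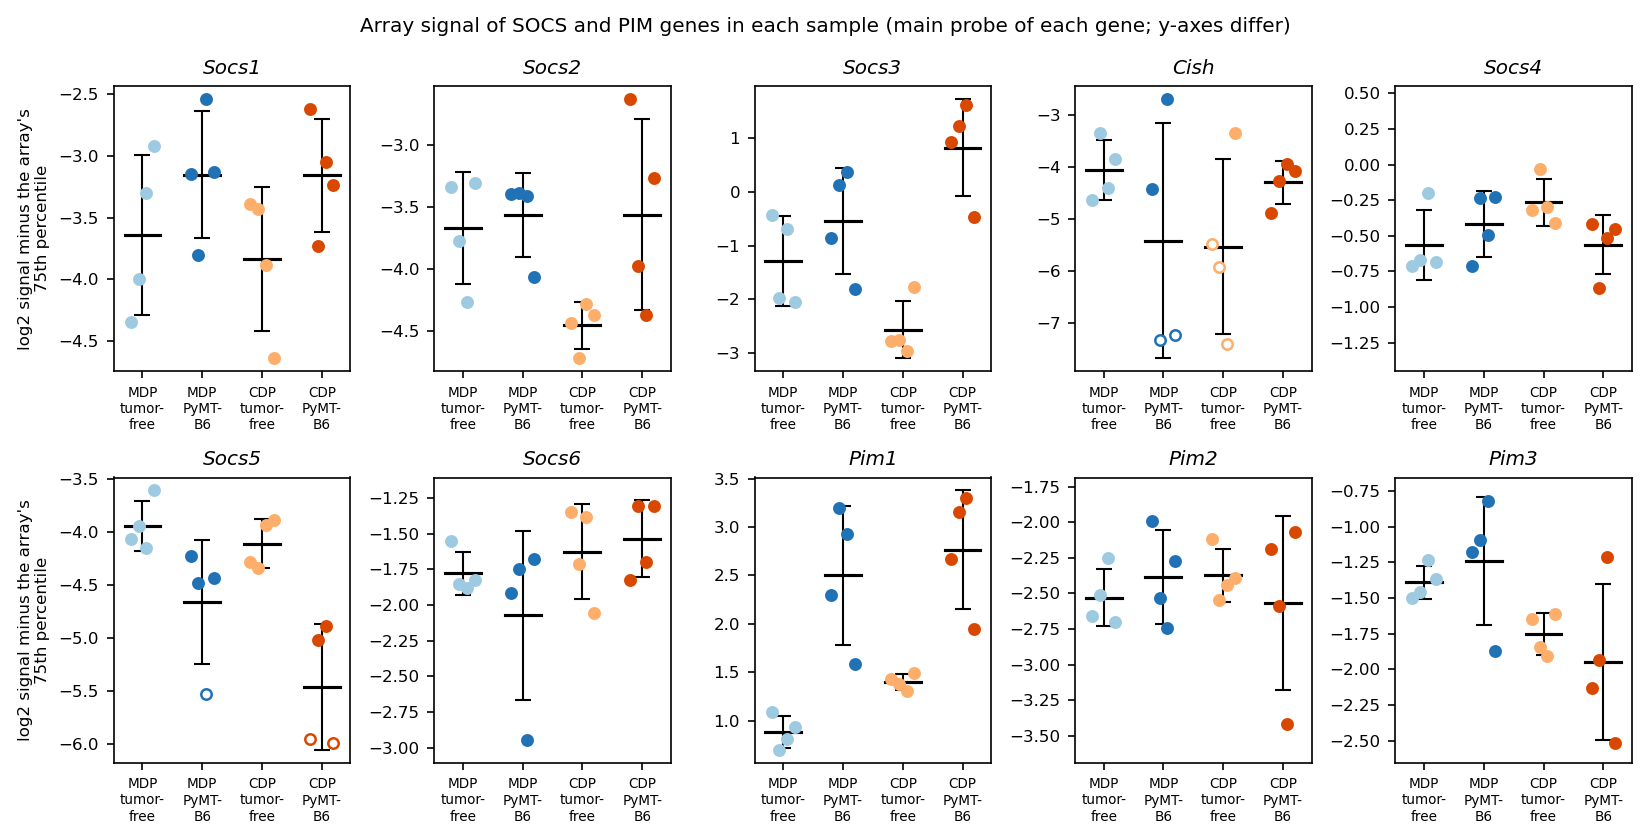
Log2 signal minus the array's 75th percentile for the main probe of each gene, 1 point per sample, with the group mean (bar) and SD (whiskers); open points are arrays on which the probe was not well above background, and each panel has its own y-axis. The PyMT-B6 samples of Pim1 sit above the tumor-free samples in both progenitors, and those of Socs3 do so in CDPs.

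Socs3, the inhibitor that STAT3 induces, was measured by 1 probe (chr11:117827480-117827539 on mm9, minus strand) that was well above background on all 16 arrays. In tumor-free CDPs its log2 signal was -2.77, -2.75, -2.95 and -1.78 in samples 2 to 5, and in CDPs from PyMT-B6 mice it was 0.92, 1.22, 1.61 and -0.47. Every PyMT-B6 sample was above every tumor-free sample, with sample 5 the lowest of the PyMT-B6 group and the highest of the tumor-free group. The means were 0.82 ± 0.91 (SD, n = 4) and -2.56 ± 0.53 (SD, n = 4), a log2 change of 3.38 (SE 0.554, 95% interval 2.20 to 4.57) or 10.4-fold, with a limma adjusted p of 0.00851.

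Socs3 in MDPs was more spread and its groups overlapped. Tumor-free MDPs had -0.44, -1.97, -0.69 and -2.04, and MDPs from PyMT-B6 mice had -0.86, 0.12, 0.37 and -1.80. The log2 change was 0.74 (SE 0.554, interval -0.45 to 1.93, limma adjusted p = 0.611). The change in CDPs exceeded that in MDPs by 2.64 (interval 0.96 to 4.32), with an unadjusted p of 0.00454 but an adjusted p of 0.748 in limma, so the difference between the progenitors did not pass over all probes. In that test 2 of 20246 genes (0.00988%) were called and 0 of the 10 members, and Socs3 was the 1 member with an unadjusted p under 0.05, as 3.97% of genes had.

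The order of the Socs3 group means was tumor-free CDPs, tumor-free MDPs, MDPs from PyMT-B6 mice and CDPs from PyMT-B6 mice, from low to high. No neighboring pair in this order passed the adjusted test: CDPs against MDPs gave -1.28 in tumor-free mice (adjusted p = 0.243 in limma) and 1.36 in PyMT-B6 mice (adjusted p = 0.141). On slides 2, 3 and 4, which held both CDP groups, the Socs3 difference was 4.57, 2.30 and 3.82, and with slide as a block the log2 change was 3.37 (adjusted p = 0.00367 in limma).

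Lists of cell type markers also differed between tumor-free and PyMT-B6 CDPs, some higher and some lower. The summed signal of 12 neutrophil genes, in units of the array's 75th percentile, ran from 38.9 to 55.1 in tumor-free CDPs and from 73.4 to 105.9 in CDPs from PyMT-B6 mice, and 3 of the 12 (Mmp8, Lcn2 and Elane) were called higher, 8 of the 12 had a positive and 4 (Ngp, Camp, Ltf and Retnlg) a negative change. All 12 were well above background on each CDP array, tumor-free ones included, so the sum is not a measure of neutrophils alone. In MDPs the same sum ran from 74.2 to 103.7 without and from 77.7 to 132.9 with tumors, again with 8 positive changes, and Lcn2 was the 1 gene called higher (2.16, limma adjusted p = 0.0489). For 6 monocyte and macrophage genes the sum ran from 23.8 to 33.3 in tumor-free and from 32.3 to 40.3 in PyMT-B6 CDPs, with 1 of 6 (Vcan, 3.96, limma adjusted p = 0.0406) called higher. The sum of 5 dendritic cell lineage genes went down, from 3.29 to 5.05 in tumor-free CDPs and from 1.71 to 2.78 in PyMT-B6 CDPs. Of these 5 genes, 4 had a negative and 1 a positive change, and 0 were called. Negative changes were also seen for 5 of 6 erythroid genes, with 0 called, and for 5 of 6 MDP and CDP markers, with Kit called. Of 5 T and NK cell genes tested, 4 had a positive change. The other, Klrd1, was called lower (-4.57, limma adjusted p = 0.00807). The part of any of these cell types in the Socs3 result was not tested. In bulk RNA of sorted cells, more cells that express a gene and more RNA per cell cannot be told apart.

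Socs1, which inhibits JAKs directly and is known for restraining interferon signaling, ranged from -4.64 to -3.39 in tumor-free and from -3.73 to -2.62 in PyMT-B6 CDPs. Its log2 changes were 0.68 in CDPs (interval -0.13 to 1.48, limma adjusted p = 0.486) and 0.49 in MDPs (interval -0.32 to 1.29, adjusted p = 0.62). The groups overlapped in both progenitors, and both intervals reached across 0.

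Cish, a STAT5-induced inhibitor of cytokine receptor signaling, had the widest spread of the members. It was -5.47, -5.92, -7.39 and -3.34 in tumor-free CDPs, well above background on 1 of 4 arrays, and -4.89, -4.27, -3.94 and -4.07 in PyMT-B6 CDPs, well above background on 4 of 4. In MDPs it went the other way, from -4.63, -3.35, -4.40 and -3.85 without tumors (4 of 4 arrays) to -4.43, -7.32, -2.69 and -7.23 with tumors (2 of 4). The groups overlapped in both, and the changes of 1.24 in CDPs (interval -0.81 to 3.28) and -1.36 in MDPs (interval -3.40 to 0.69) did not pass the limma test, with adjusted p of 0.669 and 0.598. Single arrays moved both: without 1 array the change ran from 0.62 (without tumor-free sample 4) to 1.97 (without tumor-free sample 5) in CDPs and from -2.27 (without PyMT-B6 sample 4) to -0.72 (without PyMT-B6 sample 3) in MDPs.

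The Cish differences differed by 2.59 between CDPs and MDPs (interval -0.29 to 5.48, limma adjusted p = 0.748). With slide as a block this became 3.91, with an unadjusted p of 0.000796 and an adjusted p of 0.509. The same block brought Cish in CDPs against MDPs of PyMT-B6 mice from a log2 difference of 1.12 (limma adjusted p = 0.401) to 2.44 (adjusted p = 0.0438), a call that the fit without the block did not make. On slides 2 and 3, which alone held both PyMT-B6 groups, the MDP value was one not well above background, so the size of 2.44 is not a measured ratio. The block called 6.42% of genes in that comparison.

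Socs2, known for limiting growth hormone signaling, was on the array with 3 probes. The main probe (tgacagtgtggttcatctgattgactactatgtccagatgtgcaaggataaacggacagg) is shown because the files place it, like a second probe, on chr12 (chr12:14501723-14501782, mm9), while RefSeq places Socs2 on chromosome 10. Its transcript accession in the file is that of Socs2. The probe placed on chromosome 10 (chr10:94875066-94875125) is printed on 10 spots and was well above background on 1 of 16 arrays, so it gave no test.

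By its main probe Socs2 was -4.44, -4.72, -4.28 and -4.37 in tumor-free CDPs and -2.62, -3.98, -4.37 and -3.27 in PyMT-B6 CDPs. The groups overlapped through PyMT-B6 sample 4. The log2 change was 0.89 (SE 0.333), with an unadjusted p of 0.0177 and a limma adjusted p of 0.222. The second probe gave 0.76 in CDPs (limma adjusted p = 0.679). Its signal there stood clear of background in 3 PyMT-B6 samples but only 1 tumor-free sample, so 0.76 is not taken as backing the main probe. In MDPs the main probe gave 0.11 (adjusted p = 0.89). The second probe gave -1.01 there (adjusted p = 0.557) but was well above background on only 2 of 4 arrays in each MDP group, so that no direction is read from it.

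Socs4, Socs5 and Socs6 form the branch of the family with long N-terminal regions, linked to growth factor receptors more than to cytokine feedback. Socs5 (chr17:87536500-87536559, mm9) was -4.28, -4.34, -3.93 and -3.89 in tumor-free CDPs and -5.95, -5.01, -4.89 and -5.99 in CDPs from PyMT-B6 mice. All PyMT-B6 values were below all tumor-free values, and the probe stood clear of background on 4 of 4 arrays without and 2 of 4 with tumors. Socs5 fell by 1.35 on the log2 scale, with an SE of 0.308, or 2.55-fold (limma adjusted p = 0.0415), and since the lowest PyMT-B6 values are those of the 2 arrays not clear of background, the size of the fall rests partly on dim spots. On slides 2, 3 and 4 the Socs5 difference was -0.95, -1.71 and -1.14.

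The Socs5 call was close to the threshold. Leaving out any 1 of the 8 CDP arrays lost it (adjusted p from 0.051 to 0.116 in limma), as did quantile normalization (adjusted p = 0.0993), and normexp background correction left a change of -0.39 (adjusted p = 0.715). In MDPs Socs5 was -4.06, -3.94, -4.15 and -3.61 without and -4.22, -4.48, -5.52 and -4.43 with tumors. These groups did not overlap either, and the change of -0.72 was not called (adjusted p = 0.459).

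Socs4 was -0.32, -0.03, -0.30 and -0.41 in tumor-free CDPs and -0.42, -0.87, -0.51 and -0.45 in CDPs from PyMT-B6 mice, so that the groups parted only between -0.41 and -0.42. Its change of -0.30 had a limma adjusted p of 0.504. Socs6 had 1 probe well above background on all arrays and 2 that were above it on none, and by the first its change was 0.09 in CDPs (limma adjusted p = 0.915) and -0.29 in MDPs (adjusted p = 0.655).

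Pim1, the STAT-induced kinase of the PIM family, was read by a probe on chr17:29630740-29630799 (mm9) whose sequence is shown because it carries the difference seen in both progenitors: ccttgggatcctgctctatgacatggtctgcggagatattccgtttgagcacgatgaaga. In tumor-free MDPs its log2 signal was 1.09, 0.70, 0.81 and 0.93, and in MDPs from PyMT-B6 mice it was 2.30, 3.20, 2.92 and 1.58. In tumor-free CDPs it was 1.43, 1.38, 1.30 and 1.49, and in CDPs from PyMT-B6 mice 2.67, 3.16, 3.30 and 1.94. The groups did not overlap in either progenitor, and sample 5 was the lowest PyMT-B6 sample in each, as it was for Socs3.

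The log2 change of Pim1 was 1.62 in MDPs (SE 0.329, interval 0.92 to 2.32) or 3.07-fold, and 1.37 in CDPs (interval 0.66 to 2.07) or 2.58-fold. Neither passed the limma test over all probes, with adjusted p of 0.114 and 0.0513 and unadjusted p of 0.00022 and 0.000953. The exact permutation p was 0.0286 in each, the smallest that 4 against 4 arrays can give. The changes in CDPs and MDPs differed by -0.25 (interval -1.25 to 0.74, limma adjusted p = 0.837), an interval that holds differences of over 1 log2 unit.

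Within slides Pim1 was higher with tumors everywhere it could be compared, by 2.0, 0.51 and 1.54 on slides 2, 3 and 4 in CDPs, and by 1.91, 2.11 and 0.65 on slides 1, 2 and 3 in MDPs. With slide as a block Pim1 was called in CDPs (1.36, adjusted p = 0.0227 in limma) and not in MDPs (1.63, adjusted p = 0.0638), and that fit called 4.5% of genes in CDPs and 0.168% in MDPs. In CDPs Pim1 was called in 5 of 11 other limma settings (adjusted p from 0.0227 to 0.11 over the 11), and in MDPs in 0 of 11. The 5 include the same fit read at a looser FDR of 0.1. They also include the mean over probes, which leaves the values of its 1 probe unchanged. Without PyMT-B6 sample 5, the lowest of its group, Pim1 was called in each (limma adjusted p = 0.017 in CDPs and 0.0252 in MDPs). That was the only 1 of 8 fits without 1 array to call it in either progenitor. The limma adjusted p reached 0.166 in CDPs and 0.348 in MDPs in the others. The order of the group means ran from tumor-free MDPs through tumor-free CDPs and PyMT-B6 MDPs to PyMT-B6 CDPs, and among neighbors the tumor-free groups did not overlap and the PyMT-B6 groups did.

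**Figure D2:**
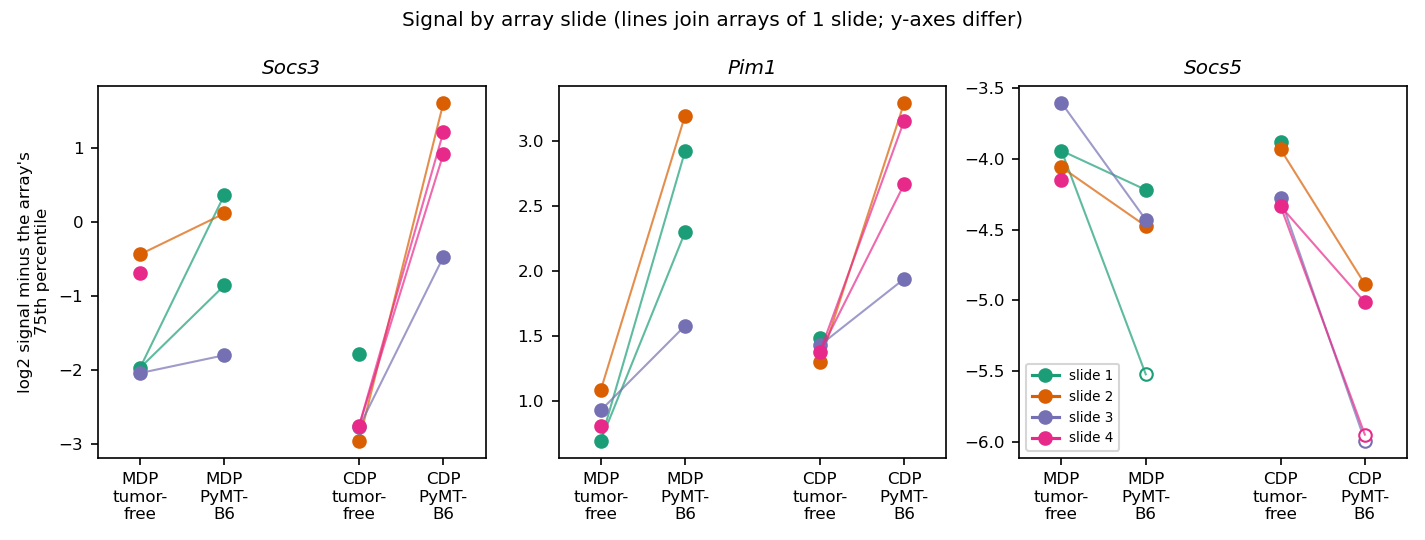
Log2 signal minus the array's 75th percentile of Socs3, Pim1 and Socs5, 1 point per sample, colored by array slide, with lines joining tumor-free and PyMT-B6 samples of 1 progenitor on 1 slide; open points are not well above background. Lines rise for Socs3 and Pim1 and fall for Socs5, by 4.57, 2.30 and 3.82 for Socs3 in CDPs.

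Pim2 and Pim3, the other PIM kinases and likewise grouped here as STAT feedback genes, were well above background on all 16 arrays and had small differences. Pim2 ranged from -2.55 to -2.12 in tumor-free and from -3.42 to -2.07 in PyMT-B6 CDPs, with changes of -0.19 in CDPs and 0.15 in MDPs. Pim3 had changes of -0.20 in CDPs and 0.15 in MDPs. The 95% intervals of these 4 changes lay between -0.75 and 0.71, and the limma adjusted p ran from 0.801 to 0.818.

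In CDPs, 4 of 10 members (Socs3, Socs4, Socs5 and Pim1) had groups that did not overlap, as did 11% of all genes. In MDPs, 2 of 10 did (Pim1 and Socs5), as did 5.31% of genes. The median change over the 10 members was 0.38 in CDPs and 0.15 in MDPs, beside 0.08 and -0.13 over all genes. Since the median of all tested probes in MDPs was shifted by -0.12, changes there are to be read against that value. The same holds for the difference of the changes, shifted by 0.15, and for CDPs against MDPs in PyMT-B6 mice, shifted by 0.19.

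**Figure D3:**
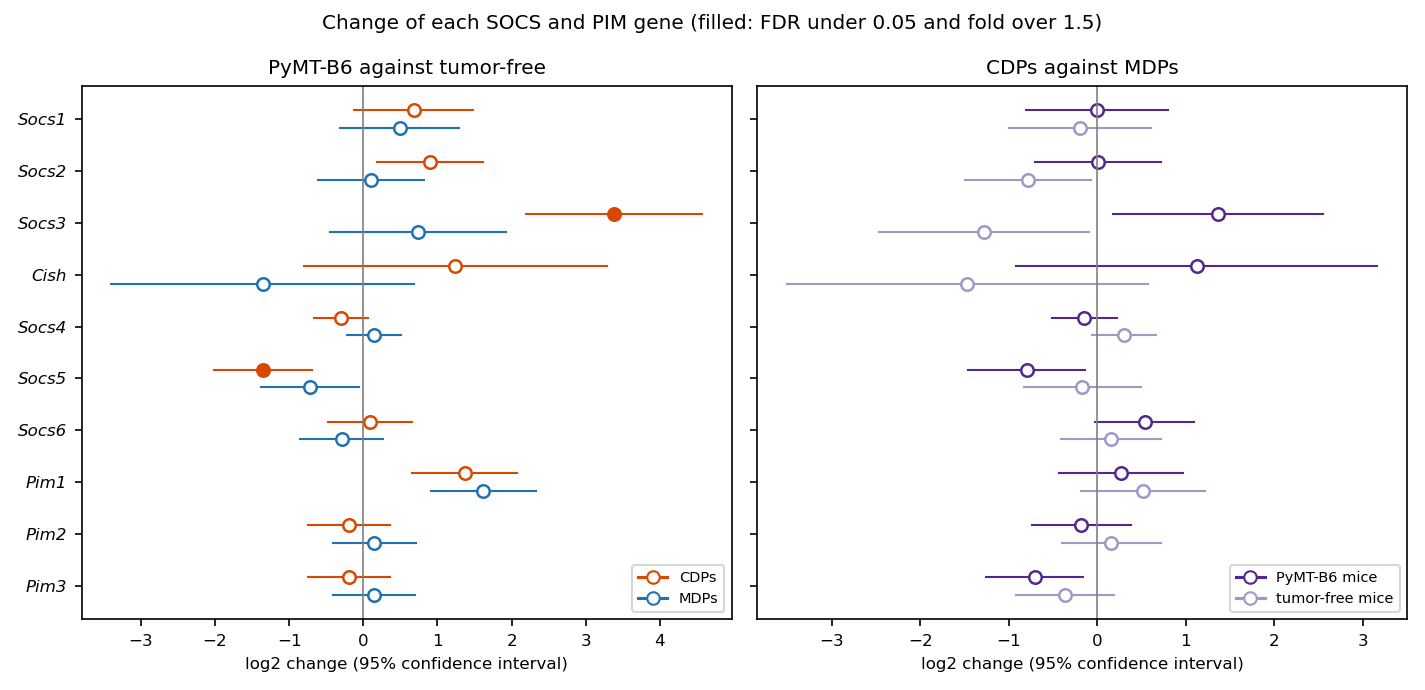
Log2 change of each gene with its 95% confidence interval from the limma fit, PyMT-B6 against tumor-free on the left and CDPs against MDPs on the right; filled points passed an adjusted p under 0.05 and a fold change above 1.5. The filled points are Socs3 at 3.38 and Socs5 at -1.35, both in CDPs.

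Comparing CDPs with MDPs, 0 of 10 members were called in tumor-free mice, where 6.25% of genes were, and 0 of 10 in PyMT-B6 mice, where 7.33% were. At an unadjusted p under 0.05 there were 2 members in tumor-free mice (17.3% of genes) and 3 in PyMT-B6 mice (28.1% of genes). The methods' t-test without adjustment called 2 in tumor-free mice (Socs2 and Socs3) and 0 in PyMT-B6 mice, again without a share over all genes to read them against. In tumor-free mice 3 members did not overlap (13.4% of genes): Pim1 was higher in CDPs by 0.52, and Pim3 and Socs2 were lower by log2 differences of -0.36 and -0.78 (limma adjusted p of 0.524, 0.602 and 0.231). In PyMT-B6 mice 0 members were free of overlap (14.2% of genes), and Pim3 (-0.71, adjusted p = 0.107) and Socs5 (-0.80, adjusted p = 0.127) had the lowest unadjusted p.

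The genes whose pattern over the 16 arrays was most like that of the 3 members with the widest range of group means were sought among 20145 genes by Pearson's r, as a description, since all points share the same arrays and slides. For Socs3 they were Atp11a (r = 0.899), Tctex1d1 (0.863) and Gda (0.857). For Pim1 they were Abi3 (0.935), Ddi2 (0.929) and 1110008P14Rik (0.922), and for Socs5 they were Perm1 (0.931), Mtmr11 (0.883) and Zbtb5 (0.878).

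Other parts of the pathway were read from 6 lists of 85 genes in all, of which 78 were tested. In CDPs 8 of the 78 were called (10.3%, beside the 1.82% of all genes), 5 higher and 3 lower, and in MDPs 0 were. The lists were chosen with earlier results of these data known, so a higher share than over all genes is no test of the pathway. Upstream of the members, 1 of 21 cytokine receptor genes was called: Kit fell by 1.34 in CDPs (adjusted p = 0.00427 in limma). Among 10 JAKs and STATs only Jak3, the kinase of common gamma chain receptors, was called, with a change of 0.86 in CDPs (adjusted p = 0.0242) and a value of 0.48 in MDPs (adjusted p = 0.388).

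The STAT3-induced genes other than Socs3 lay mostly on the higher side. This list, too, was chosen with earlier results known, so its counts beside those of all genes are a description. In CDPs 2 of 12 were called, both higher, 11 of 12 had a positive change, and the list's median was 0.55, where 58.5% of all genes had a positive change and their median was 0.08. In MDPs 0 of 12 were called, 9 of 12 were positive and the median was 0.41, where 38.8% of all genes were positive and their median was -0.13. Lrg1, a secreted glycoprotein of the acute phase, rose by 4.0 in CDPs (adjusted p = 0.00373 in limma) and had a change of 2.40 in MDPs that was not called (adjusted p = 0.195). The immediate-early factor Fos rose by 1.28 in CDPs (adjusted p = 0.00784) and was at -0.15 in MDPs (adjusted p = 0.748).

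Of 7 tested STAT5-induced genes, 1 was called in CDPs: the cyclin Ccnd1 fell by 1.91 (adjusted p = 0.0378 in limma), beside -0.26 in MDPs (adjusted p = 0.787).

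Among the other 18 inhibitors and SOCS box partners tested, Usp18 alone was called. Usp18, which blocks type I interferon receptor signaling, fell by 1.65 in CDPs (adjusted p = 0.0193 in limma) and stood at -1.24 in MDPs (adjusted p = 0.24). Of 12 PIM substrates and partners, 2 were called higher in CDPs: the cell cycle inhibitor Cdkn1a by 1.01 (adjusted p = 0.0337 in limma) and the translation repressor Eif4ebp1 by 0.59 (adjusted p = 0.0456). In MDPs Cdkn1a stood at 0.00 (rounded, adjusted p = 1) and Eif4ebp1 at 0.37 (adjusted p = 0.406).

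**Figure D4:**
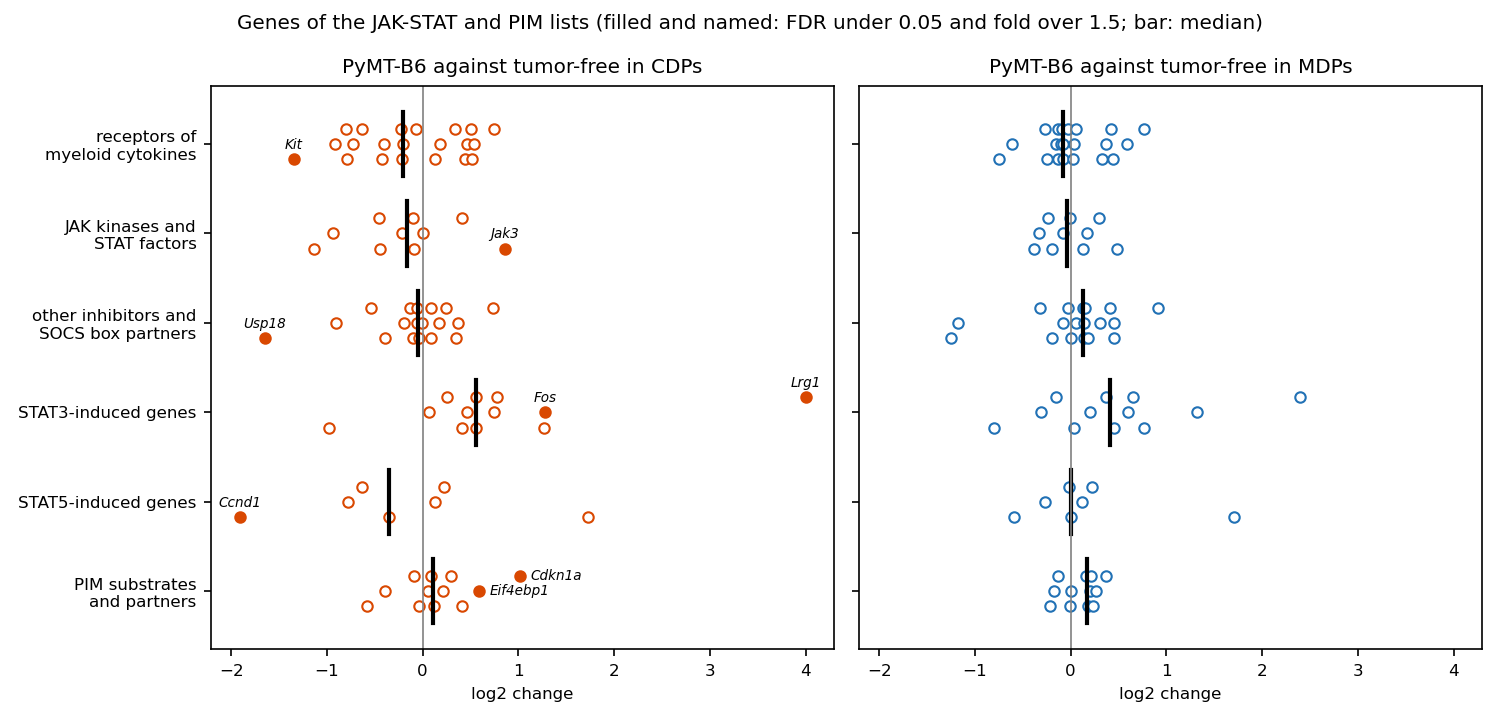
Log2 change of each tested gene of the 6 pathway lists, PyMT-B6 against tumor-free, in CDPs and in MDPs; bars are list medians, and filled, named points passed an adjusted p under 0.05 and a fold change above 1.5. In CDPs the median of STAT3-induced genes was 0.55 and that of STAT5-induced genes -0.35, and 0 genes were called in MDPs.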

How the data were processed

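For each array the authors deposited the Agilent Feature Extraction spot table, with background-subtracted and detrended processed intensity, not scaled between arrays, and probe positions on mm9. A second deposited table gives log2 values of 26793 probes, which matched quantile-normalized processed signals, and the submitters' processing notes name limma. Here flagged outlier spots were dropped, log2 processed intensity was scaled to the array's 75th percentile and spots of a probe were averaged. The 4 group means were fitted with limma 3.58.1 (R 4.3.3), as tested on simulated data. Comparisons were tumor against tumor-free in each progenitor, their difference, and CDPs against MDPs. Replicates are separate samples, each pooling mice. Groups follow the titles.

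The members and lists were chosen with earlier results of these data known. All members were named, as were list genes called in a tumor comparison (a list without one would give its 2 lowest p-values), and the 3 most similar genes for each of 3 members. List genes were chosen from general knowledge, and 1 list and 1 gene are not reported here. Of 14 probes, 13 matched RefSeq by accession under the same symbol. Alternatives were other background corrections, scalings, filters, blocks, thresholds and tests, and leaving out each array. Replicate numbers were not found to pair samples.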

Additional observations from a re-analysis of the deposited data

Results flagged for a closer look

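Samples that stood apart from the other 3 of their group were sought by Dixon's ratio for 11 probes in the 4 groups, 44 groups in all, of which chance flags about 1 in 20. In 3 groups 1 sample passed, and all were MDP groups. Among the MDP groups that passed, Socs2 was lowest in PyMT-B6 sample 5 at -4.07, while the other 3 lay between -3.41 and -3.38. Socs4 was highest in tumor-free sample 4 at -0.196, and Socs6 was highest in tumor-free sample 2 at -1.55. None of Socs2, Socs4 and Socs6 was called in MDPs.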

How the results depend on the processing

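Socs3 in CDPs was called under all 11 other limma settings run (2.92 to 3.53) and in all 8 fits without 1 array (3.12 to 3.81), and was lost only with the methods' t-test after Benjamini-Hochberg adjustment (adjusted p = 0.104). The 11 settings are not separate checks. An FDR of 0.1 reads the same fit, so a gene called at 0.05 has to pass it. The mean over probes leaves the values of a gene with 1 probe unchanged, and the deposited table matched quantile-normalized signals. The count of called members in CDPs, 2 in the fit reported, was 1 with normexp, quantile normalization, the deposited table, no filter, only the groups compared or the replicate block, 0 with that adjusted t-test, and 1 to 2 without 1 array. It was 3, with Pim1 added, with slide as a block, median scaling, the mean over probes, an FDR of 0.1 or the unadjusted t-test. In MDPs it was 1 by the unadjusted methods' t-test and 0 to 1 without 1 array. For CDPs against MDPs in PyMT-B6 mice it was 1 with quantile normalization, the deposited table (Socs5 in both) or slide as a block, and 0 to 1 without 1 array, and in tumor-free mice 2 by the unadjusted t-test. Counts by the t-test have no share over all genes beside them and are not read as a result about the members. Called list genes in CDPs were 13 with slide as a block and 5 with the replicate block against 8. Replicate numbers were not taken to pair samples, since in none of 4 comparisons did every pair of deviations correlate above 0.1: they ran from 0.02 to 0.48 in CDPs and from -0.05 to 0.46 between PyMT-B6 groups, with 3 of 4 pairs above 0.1 in each, from -0.56 to 0.44 in MDPs and from -0.63 to 0.06 between tumor-free groups. In CDPs the replicate block left Socs5 at an adjusted p of 0.0925. Changes turned sign for uncalled genes only. Cish changes stayed uncalled but ran under other settings from 0.32 (normexp) to 1.90 (slide block) in CDPs and from -2.02 (slide block) to -0.46 (normexp) in MDPs. In MDPs normexp gave -0.036 for Pim2, -0.17 for Socs2 and -0.042 for Socs4, and the mean of its probes gave -0.45 for Socs2. Leaving out 1 array gave changes from -0.091 to 0.28 for Socs2 in MDPs, with the lowest without tumor-free sample 4, and in CDPs from -0.36 to 0.090 for Pim2, with the highest without PyMT-B6 sample 4, and from -0.054 to 0.19 for Socs6, with the lowest without tumor-free sample 5. The causes were not tested.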
